A study of Bos grunniens and Bos grunniens x Bos taurus with 6 samples.

Results

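The nuclear genes for the subunits of respiratory complexes II to V, together with the electron carrier cytochrome c, were compared between longissimus dorsi muscle of yak and of cattle-yak. Members were taken by symbol: SDHA to SDHD, every symbol that starts with UQCR or ATP5, CYC1, CYCS, and the COX5 to COX8 subunits with letters A to C. These patterns gave 47 symbols among 31044 gene identifiers. For each symbol the identifier with most pooled reads stood for the gene, and all its transcripts were summed in each library. Of the 47, 45 genes had at least 30 pooled reads and were tested: 4 of complex II, 9 of complex III, cytochrome c, 13 of complex IV and 18 of complex V. COX7A2P2 shared its identifier with COX7A2, and COX7B2 had 1 read. COX4I1 and NDUFA4, 2 further subunits of complex IV, are outside the patterns and are described with the other lists.

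The series held 3 libraries of yak and 3 of cattle-yak, the cross of cattle and yak, all from the long back muscle. Full-length cDNA was amplified and read on a nanopore, so that a read can be assigned to a single transcript. The sources used here do not give the animal, sex, age, feed or batch, so the p-values measure the spread between these libraries, which may be technical. The cattle-yak carries cattle as well as yak alleles, while the reference identifiers in the table are those of Bos grunniens, the domestic yak.

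The inner mitochondrial membrane holds the respiratory chain. Complex II takes electrons from succinate, complex III passes them from ubiquinol to cytochrome c, and complex IV gives them to oxygen. Complexes III and IV pump protons, and complex V, the ATP synthase, makes ATP as protons flow back, which supplies working muscle in slow oxidative fibres above all. Complex II is encoded wholly in the nucleus, whereas complexes III, IV and V also hold subunits made from mitochondrial DNA.

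Library totals ranged from 2350851 to 2769106 counts. The member genes took 2.17%, 2.47% and 2.42% of counts in yak 1 to 3 and 2.16%, 1.93% and 2.22% in cattle-yak 1 to 3. Cattle-yak 2 had the lowest share. Pooled reads per member ranged from 195 for COX7C to 34484 for ATP5F1B. Levels below are CPM, the counts of a gene scaled to a common total of the tested genes after TMM scaling, unless another scale is named. They are not divided by length, so levels are compared between libraries and not between genes.

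Most member genes had lower levels in cattle-yak, and few passed the test singly. Of 45 genes, 5 fell (SDHA, SDHC, UQCRC2, COX6C and ATP5MC2), none rose and 40 did not pass (edgeR quasi-likelihood test, Benjamini-Hochberg adjusted p under 0.05 over 10397 genes). Over all genes tested 5.08% fell and 4.92% rose, and 7.56% fell in a fit of genes with a mean of at least 10 CPM, a level every tested member reached. The 5 genes are 11.1% of the members. DESeq2 and limma-voom also called 5 members lower and none higher, and 19 members had an unadjusted p under 0.05 in the edgeR test.

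The direction was shared more widely than the calls. The log2 fold change, cattle-yak minus yak, was negative in 40 members and positive in 5 (COX6A1, COX7A2, COX7C, COX8A and ATP5MC1), beside 47.4% negative over all genes. Its median was -0.35 over the members and 0.04 over all genes. In 16 members all cattle-yak libraries lay below all yak libraries, and in none above, beside 14.6% and 15.2% of all genes. In bulk muscle, fewer mitochondria-rich cells and less RNA per cell cannot be told apart.

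The lowest library was cattle-yak 2 for 25 members, cattle-yak 1 for 14, yak 1 for 5 and cattle-yak 3 for 1. The highest was yak 2 for 19 members and yak 3 for 15. Without cattle-yak 2 the member median was -0.23, with 37 negative and 4 genes lower, SDHA having lost its call. With libraries scaled by size alone the median of all genes moved from 0.04 to 0.23, and that of the members from -0.35 to -0.16. The member median lay 0.39 below that of all genes under both scalings (differences of -0.39). A change of scaling moves all genes nearly alike, so this equality is no separate support. Under size alone 30 members were negative, 15 positive and 4 called lower; the 10 whose sign turned were SDHB, CYC1, UQCR10, UQCR11, CYCS, ATP5F1C, ATP5F1E, ATP5PB, ATP5PD and ATP5PO. None of these was called under either scaling. The calls over all genes moved from 528 lower and 512 higher to 310 and 763.

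**Figure D1:**
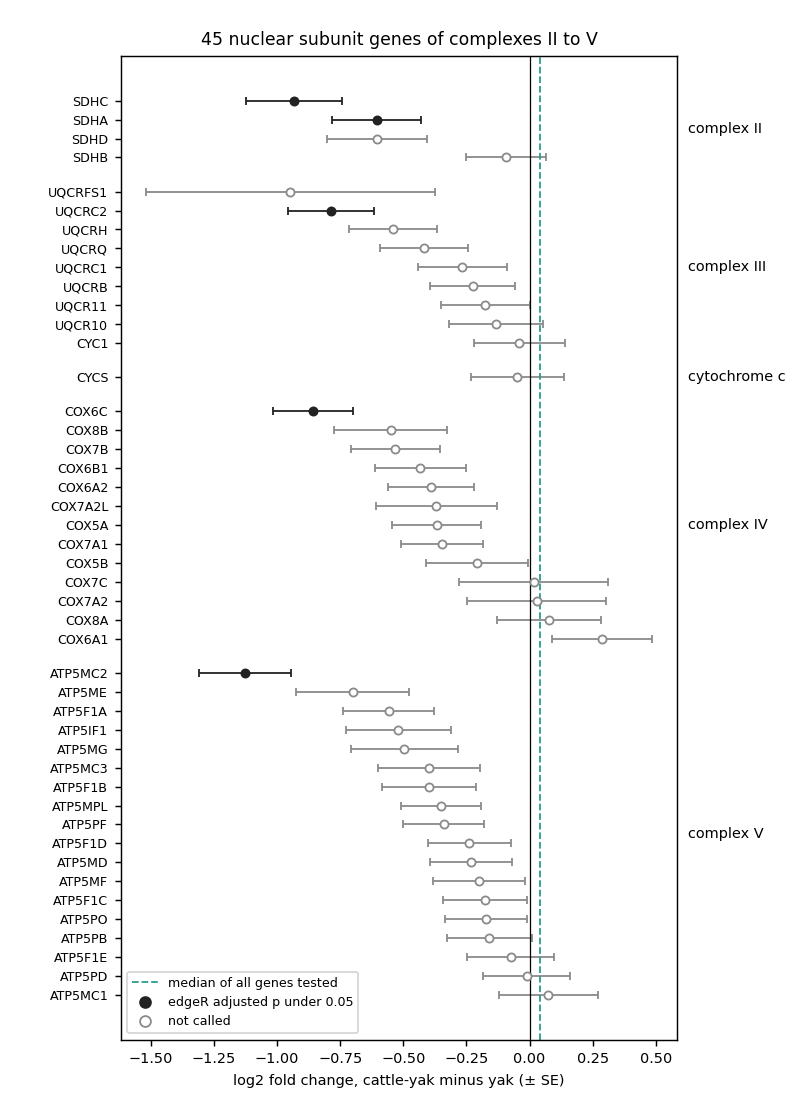
Log2 fold change, cattle-yak minus yak, with its standard error on the horizontal axis for each of the 45 tested genes, grouped by complex, filled where the edgeR adjusted p was under 0.05. The dashed line is the median of all genes tested (0.04), and 40 of 45 members lie left of zero, with SDHC, SDHA, UQCRC2, COX6C and ATP5MC2 filled.

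Complex II, succinate dehydrogenase, had 2 of its 4 subunits called lower. SDHC, a membrane anchor of the complex, had 438, 555 and 590.3 CPM in yak 1 to 3 and 308, 212 and 308 CPM in cattle-yak 1 to 3. The groups did not overlap, and cattle-yak 2 was the lowest. The mean fell from 528 ± 79.9 to 276 ± 55.5 CPM (SD, n = 3 each), a change of -0.93 ± 0.19 (SE) in log2 units (edgeR adjusted p = 0.00567). SDHC was called lower under all 19 alternatives tried, with adjusted p up to 0.0385.

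SDHA, the flavoprotein that oxidises succinate, had 553, 625 and 634 CPM in yak and 471, 322 and 398 CPM in cattle-yak. Its groups did not overlap either. The mean fell from 604 ± 44.1 to 397 ± 74.2 CPM, with a change of -0.61 ± 0.175 in log2 units (edgeR adjusted p = 0.0386). This call held under 10 of 19 alternatives, and in 1 of the 6 fits that each left out a library. It was lost with size scaling alone (adjusted p = 0.119) and without yak 1, yak 2, yak 3, cattle-yak 2 or cattle-yak 3 (0.0654, 0.118, 0.138, 0.13 and 0.0816).

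SDHD, the other membrane anchor, had 423, 467 and 538 CPM in yak and 378, 224 and 337 CPM in cattle-yak. Its groups did not overlap, and its log2 fold change of -0.61 ± 0.20 was not called (edgeR adjusted p = 0.0635). It was called in 1 of the 6 fits that left out a library, the one without cattle-yak 1 (adjusted p = 0.0366). SDHB, the iron-sulfur subunit that passes electrons from SDHA towards the anchors, had 608, 577 and 614 CPM in yak and 637, 533 and 516 CPM in cattle-yak. Its groups overlapped, the highest level being that of cattle-yak 1 (log2 fold change -0.09 ± 0.16, edgeR adjusted p = 0.766). A difference in response between SDHB and the other subunits was not tested.

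Complex III, cytochrome bc1, had 1 of 9 genes called. UQCRC2, a core subunit on the matrix side, had 569.8, 696 and 712 CPM in yak and 413, 327 and 407 CPM in cattle-yak. All cattle-yak libraries lay below all yak libraries. The mean fell from 659 ± 78.0 to 382 ± 48.0 CPM (SD, n = 3 each), a change of -0.79 ± 0.17 in log2 units (edgeR adjusted p = 0.00858). The call was lost in 1 of 18 alternatives, without yak 3 (adjusted p = 0.0514).

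UQCRC1, the partner core subunit, had means of 377 ± 50.2 and 313 ± 50.1 CPM with overlapping groups (-0.27 ± 0.18, edgeR adjusted p = 0.378). UQCRH, the hinge protein beside cytochrome c1, had 195, 265 and 216 CPM in yak and 174, 144 and 146 CPM in cattle-yak. Its groups did not overlap, and its log2 fold change of -0.54 ± 0.17 was not called (edgeR adjusted p = 0.0616). UQCRQ, a small supernumerary subunit, had 365, 463 and 379 CPM in yak and 268, 285 and 349 CPM in cattle-yak, again without overlap (-0.42 ± 0.17, edgeR adjusted p = 0.141).

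UQCRFS1, the Rieske iron-sulfur protein that accepts electrons from ubiquinol, had the largest standard error of the 45 genes. It had 1389, 536 and 1110.1 CPM in yak 1 to 3 and 628, 221 and 724 CPM in cattle-yak 1 to 3. Library 2 was the lowest in each group, and the groups overlapped. The means of 1012 ± 435 and 524 ± 267 CPM differed by -0.95 ± 0.57 on the log2 scale, which was not called (edgeR adjusted p = 0.385).

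UQCRB, a small subunit near the ubiquinone site, had 725, 884 and 835 CPM in yak and 748, 583 and 759 CPM in cattle-yak (log2 fold change -0.23 ± 0.17, edgeR adjusted p = 0.441). CYC1, cytochrome c1, had 61.4, 78.7 and 75.2 CPM in yak and 70.3, 64.7 and 74.4 CPM in cattle-yak, with overlapping groups (-0.04 ± 0.18, edgeR adjusted p = 0.919). The small subunits UQCR10 and UQCR11 overlapped between groups too, with log2 fold changes of -0.13 and -0.18. Cytochrome c itself, encoded by CYCS, had 824, 1096 and 1047 CPM in yak and 911, 791 and 1166 CPM in cattle-yak. Both the lowest and the highest library were cattle-yak (-0.05 ± 0.18, edgeR adjusted p = 0.902).

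Complex IV, cytochrome c oxidase, had 1 of 13 genes called. COX6C, a small transmembrane subunit, had 724, 675 and 596 CPM in yak and 354, 368 and 378 CPM in cattle-yak. The cattle-yak libraries lay close together and far below the lowest yak library. The mean fell from 665 ± 64.4 to 367 ± 12.4 CPM, a change of -0.86 ± 0.16 in log2 units (edgeR adjusted p = 0.00322). COX6C was called lower under all 18 alternatives that gave a value for it.

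Further complex IV genes lay without overlap but were not called. COX7B, a small membrane subunit, had 105, 136 and 112 CPM in yak and 90.3, 75.05 and 78.4 CPM in cattle-yak (-0.53 ± 0.18, edgeR adjusted p = 0.0694). COX6B1, which faces the intermembrane space, had 564, 825 and 660.5 CPM in yak and 437, 519.9 and 561 CPM in cattle-yak (-0.43 ± 0.18, edgeR adjusted p = 0.145). COX5A and COX5B, which lie on the matrix side, overlapped between groups. COX5A had 759, 640.3 and 847 CPM in yak and 616, 483 and 642 CPM in cattle-yak (-0.37 ± 0.18, edgeR adjusted p = 0.206). COX5B had 956, 1588 and 1216 CPM in yak and 1079, 889 and 1290.3 CPM in cattle-yak (-0.21 ± 0.20, edgeR adjusted p = 0.564).

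**Figure D2:**
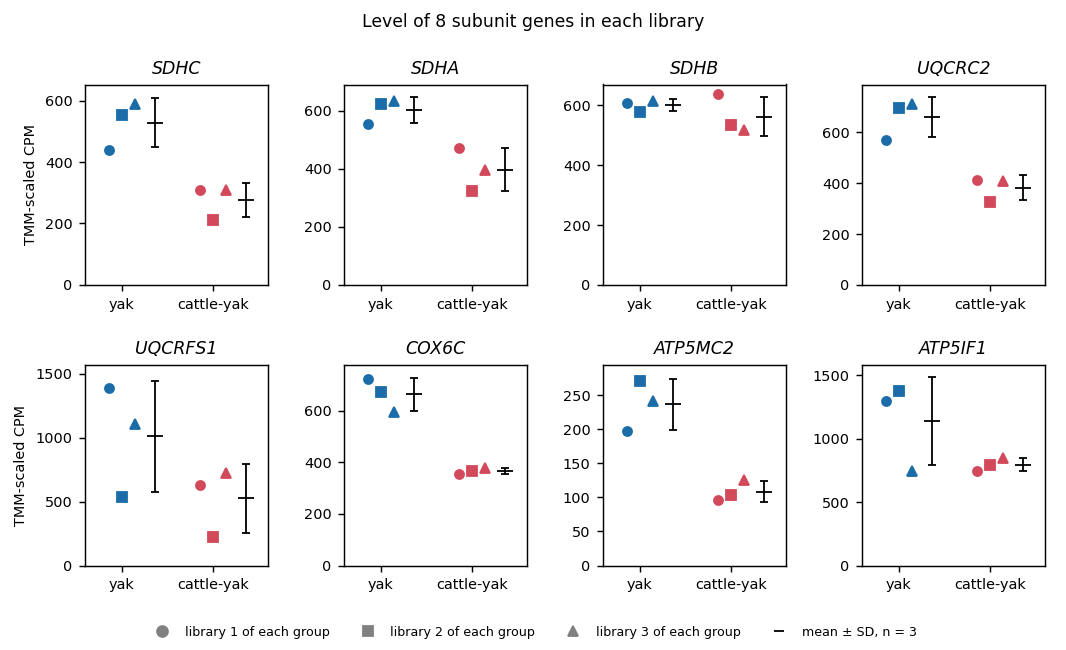
TMM-scaled CPM of 8 subunit genes in each library, on a linear axis from 0, with the mean and SD of each group beside the points (n = 3). SDHC, SDHA, UQCRC2, COX6C and ATP5MC2 show no overlap between groups, SDHB and UQCRFS1 overlap, and ATP5IF1 overlaps through yak 3 at 744 CPM.

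Complex IV has subunits that come as tissue types from separate genes. COX6A2 and COX7A1 are the types of heart and skeletal muscle, and COX6A1 and COX7A2 the types found in most tissues. COX6A2 had 429, 570.3 and 480.1 CPM in yak and 334, 374 and 419 CPM in cattle-yak, with no overlap (-0.39 ± 0.17, edgeR adjusted p = 0.163). COX6A1 had 40.5, 50.3 and 54.2 CPM in yak and 49.6, 60.8 and 66.4 CPM in cattle-yak, with overlap (0.29 ± 0.20, edgeR adjusted p = 0.396). Neither gene was called, but their ratio separated the groups. COX6A1 took 8.63%, 8.10% and 10.1% of the reads of the pair in yak and 12.9%, 13.97% and 13.7% in cattle-yak. The means of 8.96% ± 1.06 and 13.5% ± 0.53 differed by 4.57 points (SD, n = 3 each, no test run on the shares).

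COX7A1 had 357, 391 and 333 CPM in yak and 269, 269 and 312 CPM in cattle-yak, with no overlap (-0.35 ± 0.16, edgeR adjusted p = 0.191). COX7A2 had 11.3 to 16.3 CPM over the 6 libraries (0.03 ± 0.28, edgeR adjusted p = 0.965). Its share of the COX7A1 and COX7A2 reads was 4.19%, 3.25% and 3.81% in yak and 4.04%, 5.29% and 4.97% in cattle-yak, which overlapped. COX7A2L, a related protein that joins complexes III and IV, had 44.96, 68.7 and 79.3 CPM in yak and 43.4, 41.2 and 64.6 CPM in cattle-yak (-0.37 ± 0.24, edgeR adjusted p = 0.366).

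COX8B, the muscle type of subunit 8, had 74.8, 64.3 and 41.0 CPM in yak and 39.1, 38.1 and 45.7 CPM in cattle-yak. The groups overlapped through yak 3 (-0.55 ± 0.22, edgeR adjusted p = 0.135). COX8A, the general type, had 36.5, 54.7 and 58.3 CPM in yak and 54.7, 52.7 and 50.1 CPM in cattle-yak (0.08 ± 0.21, edgeR adjusted p = 0.859). COX8A took from 32.8% to 58.7% of the pair's reads in yak, so the cattle-yak shares of 52.3% to 58.3% lay inside the yak range. COX7C, the member with fewest reads, had 10.16 to 17.3 CPM over the 6 libraries with overlapping groups (0.02 ± 0.30).

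Complex V, the ATP synthase, had 1 of 18 genes called. ATP5MC2, 1 of 3 genes that encode the same mature c subunit of the proton-driven ring, had 197, 271 and 241 CPM in yak and 95.7, 103 and 126 CPM in cattle-yak. Every cattle-yak library lay well below the lowest yak library. The mean fell from 236 ± 37.2 to 108 ± 15.5 CPM, a change of -1.13 ± 0.18 in log2 units (edgeR adjusted p = 0.00114). It had the largest change in absolute log2 fold among the 45 genes, and was called lower under all 18 alternatives that gave a value for it.

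The other genes of the c subunit were not called. ATP5MC1 had 459, 737 and 739 CPM in yak and 640.1, 619 and 778 CPM in cattle-yak, with overlap (0.07 ± 0.20, edgeR adjusted p = 0.854). ATP5MC3, which holds most of the reads of the set, had 855, 1340.4 and 1429 CPM in yak and 861, 807 and 1079.5 CPM in cattle-yak, also with overlap (-0.40 ± 0.20, edgeR adjusted p = 0.235). As shares of the 3 genes the libraries were less variable than as levels. ATP5MC2 took 13.02%, 11.5% and 10.02% of the set's reads in the yak libraries and 5.998%, 6.75% and 6.33% in cattle-yak. ATP5MC1 took 30.4%, 31.4% and 30.7% in yak and 40.1%, 40.5% and 39.2% in cattle-yak. ATP5MC3 took 56.6%, 57.1% and 59.3% in yak and 53.9%, 52.8% and 54.4% in cattle-yak. For each of the 3 genes the shares of the groups did not overlap, and the means differed by 9.12 points for ATP5MC1, -5.17 for ATP5MC2 and -3.95 for ATP5MC3.

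A second identifier named ATP5MC2 held 147 reads with that symbol, against 2450 for the member gene. It had 17, 18 and 14 reads in yak and 33, 23 and 42 reads in cattle-yak, the opposite order. With both summed by symbol, ATP5MC2 was still called lower. Reads of near-identical copies can be assigned to the wrong gene, and the sources used here do not give how the counting treated them.

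**Figure D3:**
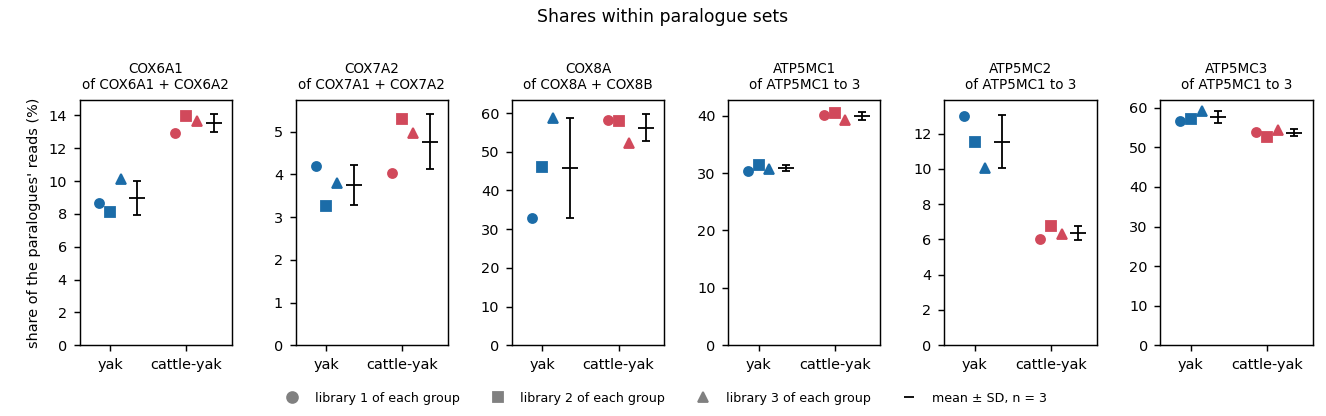
Share (%) of each gene in the summed reads of its paralogue set in each library, with mean and SD (n = 3), axes from 0. The groups do not overlap for COX6A1, ATP5MC1, ATP5MC2 and ATP5MC3, and overlap for COX7A2 and COX8A.

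The catalytic head of the ATP synthase is built from the alpha and beta subunits around the gamma stalk. ATP5F1A, the alpha subunit, had 1278, 1558 and 1446 CPM in yak and 1077, 752 and 1079.9 CPM in cattle-yak. Its groups did not overlap, and its log2 fold change of -0.56 ± 0.18 was not called (edgeR adjusted p = 0.061). ATP5F1B, the catalytic beta subunit, had 2082, 3012 and 3031 CPM in yak and 2219.7, 1721 and 2219 CPM in cattle-yak. Yak 1 lay among the cattle-yak libraries (-0.40 ± 0.19, edgeR adjusted p = 0.192). ATP5F1C, the gamma subunit, had 1149.9, 1451 and 1465 CPM in yak and 1258, 1073 and 1267 CPM in cattle-yak (-0.18 ± 0.17, edgeR adjusted p = 0.55). Of its 18619 reads, 5903 lay in the reference transcript ENSBGRT00000027354, which the table names TAF3, a gene that neighbours ATP5F1C in RefSeq's yak annotation. ATP5F1D and ATP5F1E, the delta and epsilon subunits of the central stalk, overlapped between groups, with log2 fold changes of -0.24 and -0.07.

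ATP5IF1, the inhibitor that binds the head and limits ATP hydrolysis, had 1291, 1376 and 744 CPM in yak and 742, 789 and 847 CPM in cattle-yak. Yak 3 lay with the cattle-yak libraries, apart from yak 1 and yak 2. The log2 fold change of -0.52 ± 0.21 was not called (edgeR adjusted p = 0.131), and without yak 3 it was -0.75 and called (adjusted p = 0.0327). That was 1 of the 6 fits that left out a library, and ATP5IF1 was not called in the others.

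The peripheral stalk holds the head still. Its genes ATP5PB, ATP5PD and ATP5PO overlapped between groups, with log2 fold changes of -0.16, -0.01 and -0.17. ATP5PF, coupling factor 6 of the stalk, had 229.7, 273 and 283 CPM in yak and 212, 199 and 209 CPM in cattle-yak, without overlap (-0.34 ± 0.16, edgeR adjusted p = 0.202).

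Of the small membrane subunits, ATP5ME, which takes part in pairing of the enzyme into dimers, had 37.4, 61.2 and 49.7 CPM in yak and 30.1, 26.2 and 34.8 CPM in cattle-yak. Its groups did not overlap, and of the 40 genes not called it had the lowest adjusted p (-0.70 ± 0.22, edgeR adjusted p = 0.0577). It was called in 1 of the 6 fits that left out a library, the one without yak 1 (adjusted p = 0.0392). ATP5MPL, another small membrane subunit, had 195, 200.3 and 195 CPM in yak and 142, 157 and 163 CPM in cattle-yak, without overlap (-0.35 ± 0.16, edgeR adjusted p = 0.176). ATP5MD, ATP5MF and ATP5MG overlapped, with log2 fold changes of -0.23, -0.20 and -0.50.

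Summed over its members, each of complexes II, III and IV separated the groups. Complex II summed to 2022, 2223 and 2377 CPM in yak and 1794, 1291 and 1559.6 CPM in cattle-yak, 29.9% lower in the mean. The mean of complex III was 28.0% lower, that of complex IV 23.2% lower and that of complex V 18.7% lower, the last with overlap. The sum for complex V ran from 11547 to 14556 CPM in yak and from 9880.4 to 12057 CPM in cattle-yak. Cytochrome c was 3.37% lower in the mean, with overlap. No test was run on these sums.

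With libraries scaled by size alone the mean of complex II was 20.1% lower, that of complex III 18.4% and that of complex IV 12.7%, each still without overlap. Yak 1 and cattle-yak 1 then came close in complex II, at 1932 and 1926 CPM. With UQCRFS1 left out, a check added after seeing the data, complex III was 21.7% lower after TMM scaling, with yak 1 at 2813 and cattle-yak 3 at 2812 CPM, and 10.9% lower by size alone, with overlap. Complex V was 7.45% lower with overlap. For cytochrome c the direction turned, with means of 914 CPM in yak and 1002 CPM in cattle-yak. All 45 genes together were 21.4% lower after TMM scaling, without overlap (20.3% and with overlap when UQCRFS1 is left out), and 10.6% lower by size alone, with overlap.

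**Figure D4:**
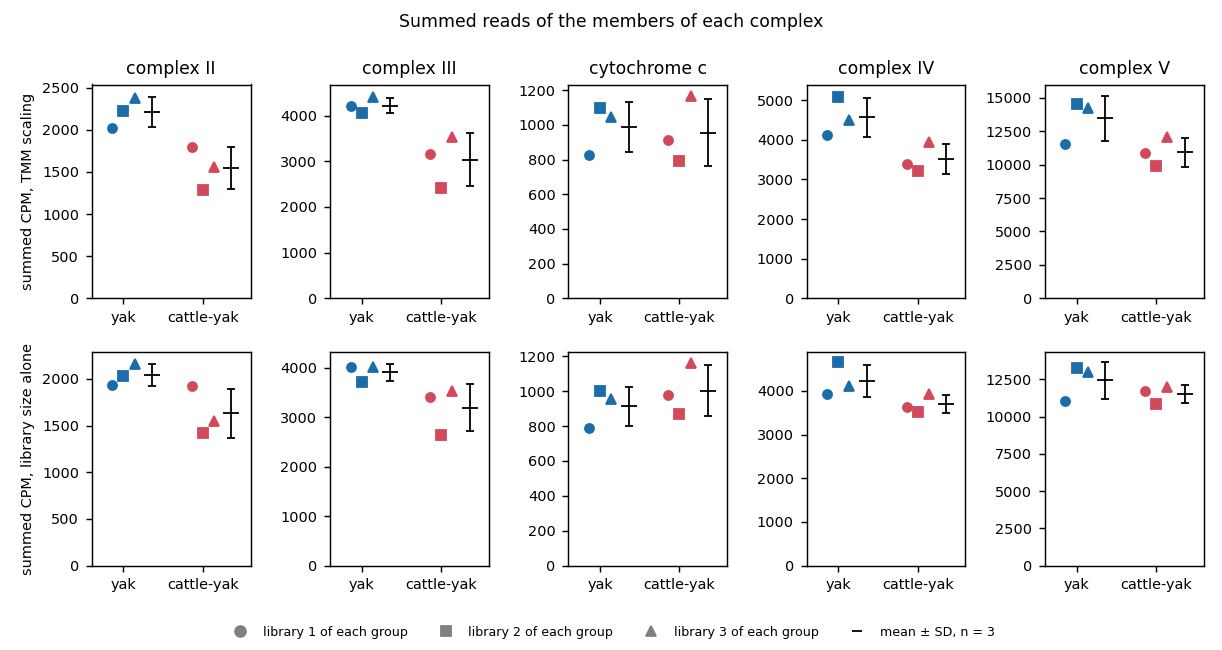
Summed CPM of the tested members of each complex in each library, after TMM scaling (upper row) and by library size alone (lower row), with mean and SD (n = 3), axes from 0. Complexes II, III and IV do not overlap between groups under either scaling (complex III does by size alone without UQCRFS1), complex V and cytochrome c do, and the mean differences are smaller in the lower row.

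Single transcripts showed where within a gene the reads lay. Of 344 member transcripts with at least 30 pooled reads, 17 fell in 9 genes and 5 rose in 4 genes (edgeR, adjusted over 27036 transcripts). Over all transcripts tested 6.27% fell and 6.52% rose. Of the 17 that fell, 11 belonged to genes called lower and 6 to genes not called. All 5 that rose were assembled from the reads and had no reference identifier. Of these 5, 2 had no yak read, so that they reached the minimum of 30 through the cattle-yak libraries alone, and CYCS is among the 4 genes through 1 of them.

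In ATP5MC2 a minor transcript rose in the gene that fell most. Its main transcript, TALONT001359894, had 427, 598 and 499 reads in yak and 207, 224 and 311 reads in cattle-yak, a change of -1.24 ± 0.20 in log2 units (edgeR adjusted p = 0.000548). A second, TALONT001359969, had 7, 4 and 3 reads in yak and 28, 30 and 22 reads in cattle-yak, rising by 2.29 ± 0.43 on the log2 scale (edgeR adjusted p = 0.00196). Both calls held under all 9 alternatives. The second transcript reached the minimum of 30 pooled reads only through the cattle-yak libraries, where it was high. The second went from 0.93% of the gene's reads in yak to 9.66% in cattle-yak, and the main one from 95.8% to 86.0%.

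ATP5PF had the member transcript with the lowest log2 fold change among those called with at least 60 reads. TALONT000067587 had 46, 54 and 45 reads in yak and 8, 8 and 13 reads in cattle-yak, a change of -2.51 ± 0.33 in log2 units (edgeR adjusted p = 9.21e-05), called under all 9 alternatives. It held 8.27% ± 0.90 of the gene's reads in yak and 1.76% ± 0.43 in cattle-yak. The gene's main transcript, TALONT000067511, held 67.6% ± 0.82 and 71.0% ± 1.80, and its level was not called (-0.24 ± 0.18, edgeR adjusted p = 0.435).

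In SDHA the reference transcript and an assembled one moved apart in share, although usage of the gene was not called (adjusted p = 0.0943). The reference transcript had 656, 741 and 797 reads in yak and 545, 325 and 466 reads in cattle-yak, a change of -0.92 ± 0.20 in log2 units (edgeR adjusted p = 0.00518). It held 54.0% ± 2.88 of the gene's reads in yak and 42.2% ± 3.23 in cattle-yak. The assembled TALONT000488287 had 180, 257 and 191 reads in yak and 245, 204 and 227 reads in cattle-yak and was not called (-0.09 ± 0.20, edgeR adjusted p = 0.819). Its share was 15.4% ± 2.28 in yak and 21.8% ± 2.23 in cattle-yak. A smaller transcript that fell was TALONT000486369, with 40, 45 and 36 reads in yak and 22, 6 and 17 reads in cattle-yak (-1.62 ± 0.38, edgeR adjusted p = 0.00822). The calls of the reference transcript and of this smaller one held under all 9 alternatives, while that of the whole gene did not. The assembled transcripts summed alone gave -0.32 for SDHA, which was not called (adjusted p = 0.272).

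In ATP5F1B and UQCRB, too, the reference transcript had a smaller share in cattle-yak and an assembled one a larger share; these genes were chosen after their values were seen. The reference transcript of ATP5F1B went from 36.02% ± 1.42 to 28.5% ± 1.81 of the gene's reads and fell by 0.70 ± 0.19 on the log2 scale (edgeR adjusted p = 0.0191). That call did not survive leaving out yak 2, yak 3 or else cattle-yak 2, with adjusted p up to 0.0988. The assembled TALONT001193303 of ATP5F1B went from 38.4% to 44.7% and was not called (-0.14 ± 0.19, edgeR adjusted p = 0.678), while a minor assembled one, TALONT001193485, was called lower in a call that held under 2 of 9 alternatives. The reference transcript of UQCRB held 55.1%, 64.7% and 63.0% of its reads in the yak libraries and 50.9%, 54.0% and 50.2% in cattle-yak. The assembled TALONT000284660 of UQCRB held 16.0%, 15.2% and 16.1% in yak and 25.3%, 19.9% and 25.1% in cattle-yak. Reference identifiers are those of yak, and the part of cattle alleles in how reads were divided between reference and assembled transcripts was not tested.

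Across the members, reference and assembled transcripts were also summed and fitted apart, each kind with its own scaling. Their log2 fold changes are thus not on a common scale. COX6A2, with 98.7% of its reads in reference transcripts, had -0.39 with all transcripts and -0.15 with reference ones alone. Of 24 with a value from reference transcripts alone and from assembled ones alone, the reference log2 fold change was the lower in 9 and the higher in 15. That split depends on the scaling, so a shared order was not tested. Reference values stood at -0.15 against -0.78 for assembled ones in COX6A2, -0.11 against -0.47 in COX7A1 and 0.02 against -0.20 in COX5B. Reference transcripts held 98.7%, 95.2% and 95.9% of the reads of these genes, so their assembled values rest on a small part of the reads. Among the 9 the other way, SDHA had -0.72 against -0.32 and UQCRB -0.24 against 0.07. In SDHC both kinds fell. Its reference transcript ENSBGRT00000002995 had 432, 547 and 576 reads in yak and 359, 259 and 367 reads in cattle-yak (-0.86 ± 0.19, edgeR adjusted p = 0.00672). The assembled TALONT000793441 of SDHC had 368, 486 and 481 reads in yak and 275, 189 and 333 reads in cattle-yak (-0.95 ± 0.21, edgeR adjusted p = 0.0059). A minor transcript, TALONT000793568, fell from 20, 17 and 20 reads to 6, 2 and 8 (-2.01 ± 0.46, edgeR adjusted p = 0.00726). These 3 calls held under all 9 alternatives. In UQCRC2 the 4 transcripts called were assembled, and they fell by 0.79 to 1.39 on the log2 scale. One of them, TALONT001449022, was not called when yak 2, yak 3 or else cattle-yak 2 was left out, with adjusted p up to 0.0998.

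Transcript usage, the division of a gene's reads among its transcripts, was tested in 24 members and called in 2, ATP5PF and UQCRB, beside 5.38% of all 2863 genes tested. ATP5PF had an adjusted p of 0.000283 (edgeR diffSpliceDGE) over 3 transcripts. TALONT000067587, 1 of these, passed the minimum of 5% of pooled reads only through the yak libraries, where its share was high. The call of ATP5PF thus rests on a transcript that entered the test through the group difference itself. Leaving out any yak library took TALONT000067587 below the minimum of 5% of pooled reads, so that 2 transcripts were left and the gene was not called (adjusted p up to 0.937). UQCRB had an adjusted p of 0.0205 over 4 transcripts, and its call held under 2 of 9 alternatives. It did not hold when yak 2, yak 3, cattle-yak 1 or cattle-yak 3 was left out (adjusted p = 0.129, 0.156, 0.0638 and 0.101).

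A transcript of ATP5MC1 set the cattle-yak libraries apart from each other. TALONT000534187 had 31, 24 and 25 reads in yak and 220, 213 and 11 reads in cattle-yak 1 to 3. It held 13.4% and 13.2% of the gene's reads in cattle-yak 1 and 2, and 0.51% in cattle-yak 3, below all yak libraries. Its log2 fold change of 2.30 ± 1.15 was not called (edgeR adjusted p = 0.302). Usage of ATP5MC1 was not called with all libraries (adjusted p = 0.145) and was called without cattle-yak 3 (adjusted p = 1.22e-05). Another transcript of the gene, TALONT000534364, rose from 8, 18 and 24 reads to 63, 54 and 28 (1.34 ± 0.41, edgeR adjusted p = 0.0407). It was not called when either yak 1, yak 2, cattle-yak 1 or else cattle-yak 2 was left out, with adjusted p up to 0.151.

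Among the remaining transcripts that rose, TALONT000082465 of ATP5PD had 24, 22 and 25 reads in yak and 37, 49 and 87 reads in cattle-yak (1.07 ± 0.32, edgeR adjusted p = 0.0375). It was not called when any 1 yak library or cattle-yak 3 was left out, with adjusted p up to 0.171. Another 2, chosen for mention after their values were seen, had no read in yak. TALONT000774631 of CYCS had 19, 9 and 13 reads in cattle-yak, which is at least 13.2-fold higher than a floor of 3 counts set for all yak libraries together. TALONT000082426 of ATP5PD had 4, 14 and 17 reads there, which is at least 11.3-fold higher than the same floor. The floor covers counting error only, since the amplified reads carry no molecular identifiers and 1 molecule can give several.

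**Figure D5:**
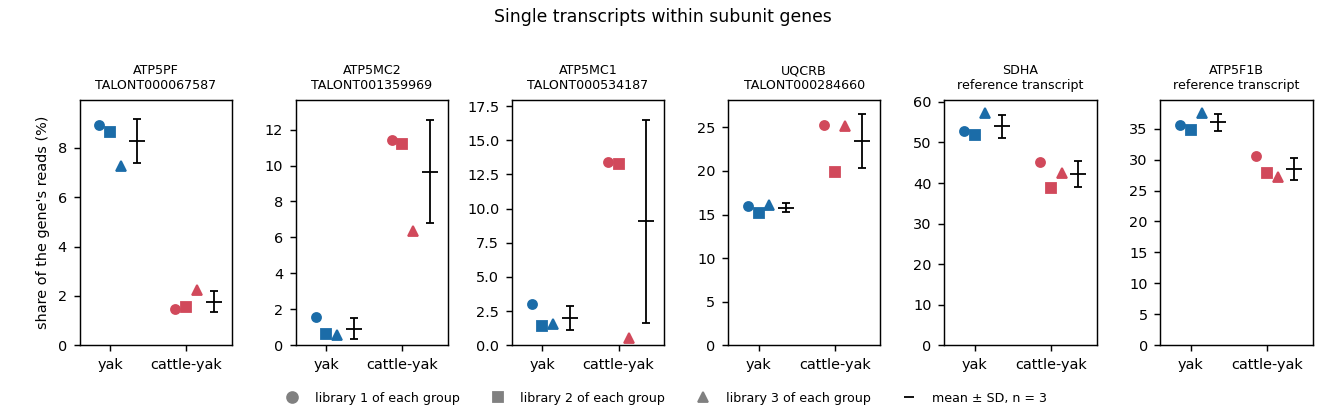
Share (%) of a gene's reads held by 6 single transcripts in each library, with mean and SD (n = 3), axes from 0. The groups do not overlap except for TALONT000534187 of ATP5MC1, where cattle-yak 3 (0.51%) lies below the yak libraries and cattle-yak 1 and 2 lie above 13%.

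Other genes of the same machinery were read from lists. Their counts stand beside shares over all genes tested of 5.08% lower and 4.92% higher, and 7.56% lower with a mean of at least 10 CPM. Of 37 nuclear subunits of complex I, 3 fell, none rose and 34 did not pass, with a median log2 fold change of -0.30. All 37 were negative, while the count called lower was near those shares. The largest change was that of NDUFS1, an iron-sulfur subunit, from 396 ± 60.1 to 176 ± 35.7 CPM (-1.17 ± 0.19, edgeR adjusted p = 0.00119). NDUFA10 (-0.77) and NDUFB1 (-0.67), accessory subunits, were the others, and NDUFB1 kept its call in 1 of 6 fits that left out a library, the one without yak 3, with adjusted p up to 0.0957 in the rest. By size alone NDUFB1 was not called (edgeR adjusted p = 0.091). The subunits outside the symbol patterns did not pass: COX4I1, a core-bound subunit of complex IV, had a log2 fold change of -0.31 ± 0.16 and NDUFA4 one of -0.39 ± 0.16, both without overlap (edgeR adjusted p = 0.251 and 0.143). COX4I2 and DMAC2L, also of that list, did not pass either.

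Of 32 assembly factors of complexes II to V, 2 fell, none rose and 30 did not pass (median -0.39). That count is near the 5.08% of all genes that fell. UQCC1, needed to make cytochrome b of complex III, fell from 66.0 ± 15.3 to 29.8 ± 7.84 CPM (-1.15 ± 0.23, edgeR adjusted p = 0.00567). COX16, which helps to build complex IV, fell from 85.6 ± 17.2 to 45.9 ± 1.13 CPM (-0.90 ± 0.19, edgeR adjusted p = 0.00775). Of 11 regulators of mitochondrial genes, PPARGC1A and TFAM among them, none passed in either direction (median -0.29).

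For mitochondrially encoded subunits cattle-yak 2 was not the lowest library. Of 11 matched, 1 fell and 10 did not pass (median -0.16). ND5, a subunit of complex I, was the one called (-1.03 ± 0.28, edgeR adjusted p = 0.039), and its call was lost without any of yak 2, yak 3 and the 3 cattle-yak libraries (adjusted p from 0.0942 to 0.129). Its groups overlapped, and the call held under 9 of 18 alternatives. It was also lost with edgeR's filterByExpr, a mean of at least 10 CPM, size scaling alone and limma-voom (adjusted p from 0.0506 to 0.0774). COX1, the catalytic subunit of complex IV, had 3787, 5667 and 5381 CPM in yak and 3174, 5939 and 3825 CPM in cattle-yak (-0.20 ± 0.23, edgeR adjusted p = 0.642). COX3 had 3599, 3402 and 3645 CPM in yak and 2825, 4010.2 and 2708 CPM in cattle-yak (-0.16 ± 0.18, edgeR adjusted p = 0.623). Cattle-yak 2, the lowest library for 25 nuclear members, was the highest for both. Over the 11 genes it was the highest for 6 and the lowest for 0, and a yak library was the highest for the other 5. COX2 was among those 5, with 4238, 4369 and 3978 CPM in yak and 2773, 4304 and 2596 CPM in cattle-yak (-0.38 ± 0.19, edgeR adjusted p = 0.237).

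Genes for other mitochondrial proteins had a median of -0.47, and mitochondrial content itself was not measured. Of 13 tested, 4 fell: CS, citrate synthase of the matrix (-0.79), the outer membrane channels VDAC1 (-0.59) and VDAC3 (-0.54), and IMMT, which shapes the cristae (-0.85). None rose and 9 did not pass, beside 5.08% lower over all genes tested. Of the 13, 10 had a negative log2 fold change, and HSPD1 (0.05), PHB1 (0.12) and PHB2 (0.14) a positive one. SLC25A4, with most reads of the list, had -0.10 ± 0.19 (edgeR adjusted p = 0.789). In the 6 fits that left out a library, CS and IMMT lost their calls when yak 2, yak 3 or else cattle-yak 2 was the one, with adjusted p up to 0.111 and 0.0644. VDAC1 was called only without cattle-yak 3 and VDAC3 in none of the 6 (adjusted p up to 0.0960 and 0.156). By size alone neither VDAC1 nor VDAC3 was called (edgeR adjusted p = 0.0846 and 0.149).

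Fibre and cell markers were set beside the members, and their part in the results was not tested. Their counts, too, stand beside 5.08% lower and 4.92% higher over all genes tested. All 10 skeletal muscle markers were found, and 3 of them fell (ACTA1, MB and MYH2) while 2 rose (DES and TTN). Their summed level ran from 203045 to 226742 CPM in yak and from 150693 to 163331 CPM in cattle-yak, lower there without overlap. ACTA1, with most reads of the list, had means of 116121 CPM in yak and 71788 CPM in cattle-yak. Of 9 slow fibre genes 1 rose (MYOZ2), and their summed level ran from 20368 to 28597 CPM in yak and from 23574 to 26388 CPM in cattle-yak. MYH7, the slow myosin, took 9.13%, 8.51% and 12.7% of the reads of MYH1, MYH2 and MYH7 in yak and 12.9%, 17.6% and 13.3% in cattle-yak. The level of MYH7 itself was 3132 ± 625 CPM in yak and 3273 ± 350 CPM in cattle-yak, with overlap. It was not called (0.06 ± 0.18, edgeR adjusted p = 0.861), while MYH2 in the denominator fell. Of 9 fast fibre genes 3 fell (MYH2, ATP2A1 and CASQ1), none was called higher, and 7 had a negative log2 fold change. MYH1, a fast myosin, had 654, 645 and 1812 CPM in yak and 2858, 2217 and 3077 CPM in cattle-yak. Its level was higher in cattle-yak without overlap and was not called (1.39 ± 0.45, edgeR adjusted p = 0.119). The fast fibre sum ran from 115852 to 126569 CPM in yak and from 84955.5 to 113111 CPM in cattle-yak, also without overlap. Leaving out 1 library ended some of these calls: ACTA1 without yak 2, yak 3 or cattle-yak 1, MYH2 without yak 2, ATP2A1 without yak 1, yak 3 or cattle-yak 2, DES without yak 2 or yak 3, MYOZ2 without yak 1 or yak 2, and TTN in every case but cattle-yak 3 (adjusted p up to 0.160).

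For the cell markers below, the shares over all genes tested were again 5.08% lower and 4.92% higher. Of 5 fibroblast markers tested, 3 fell (COL1A2, COL3A1 and LUM), with a summed level of 437 to 551 CPM in yak and 222 to 414 CPM in cattle-yak. Of 7 macrophage markers, 2 rose (CD163 and CTSS), and the sum ran from 21.0 to 49.2 CPM in yak and from 45.7 to 109 CPM in cattle-yak. Both haemoglobin genes of the erythroid list fell, with sums of 2.73 to 25.4 CPM in yak and 0.36 to 2.34 CPM in cattle-yak. HBB had 46 pooled reads and HBA 67, and both reached the minimum for testing only through the yak libraries. In HBB yak 3, at 0.46 CPM, lay near the cattle-yak libraries, at 0.36 to 0.39 CPM. Endothelial sums were 38.5 to 45.1 CPM in yak and 39.5 to 81.2 CPM in cattle-yak, where VWF rose of 4 genes tested. CD163 had 63 pooled reads and VWF 59, and both reached the minimum for testing only through the cattle-yak libraries. The calls of HBB, HBA, CD163 and VWF thus rest on genes that entered the test through the group difference itself. Of 2 adipocyte markers tested, PLIN4 rose, with sums of 18.3 to 24.9 and 14.1 to 34.6 CPM, and ADIPOQ, PLIN1 and LEP were not matched. None of 5 smooth muscle and pericyte markers passed, with sums of 143 to 176 and 131 to 179 CPM. The only cardiac marker tested, MYH6, did not pass, with 5.79 to 6.997 CPM in yak and 8.21 to 20.01 CPM in cattle-yak. The calls of the fibroblast and macrophage genes held in all 6 fits without 1 library, although CD163 reached the minimum each time through cattle-yak reads. Those of VWF, PLIN4 and the haemoglobin genes were lost in 2 or more of theirs, with adjusted p up to 0.0553 for VWF, 0.0864 for PLIN4 and 0.157 for HBA.

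The names rest on unequal evidence. For 33 members at least 98% of the gene's reads lay in transcripts that carry the member's symbol, and for 8 it was under 50%: COX6A1, COX5B, COX7B, ATP5MF, ATP5PO, ATP5MG, UQCRQ and UQCRB. In these the main transcript was a reference one without a symbol, and its deposited description names that subunit. For some other members the symbol stands without such a description. The main transcript of COX6C, with 93.97% of its reads, is described as an uncharacterised goat protein. Those of ATP5MC3, ATP5ME, ATP5PB, ATP5MPL and COX8B are described as unnamed or hypothetical proteins. SDHA had 50.9% of its reads in rows of its own symbol, and with those rows alone its log2 fold change was -0.28, not called (adjusted p = 0.311).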

How the data were processed

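For 6 libraries the authors deposited a count of reads for each transcript, in whole numbers, and its CPM, which differed from count over library total by at most 0.005. Per the labels' protocols, 1 µg of total RNA entered each cDNA-PCR library. Tools named in the submitters' processing notes are fastp, minimap2 and GSNAP; the sources used here do not give build and counting software. Counts were summed by gene identifier, leaving out 61 transcripts without one (at most 0.00249% of a library's counts). Genes with at least 30 pooled reads (10397) entered the robust quasi-likelihood test of edgeR 4.0.16 with R 4.3.3 (TMM scaling, Benjamini-Hochberg adjustment over all genes, threshold 0.05), after tests on simulated data. SE is the absolute log2 fold change over the square root of F. Transcripts were tested alike, and usage with diffSpliceDGE on transcripts with at least 5% of their gene's reads. Alternatives included DESeq2 1.42.0, limma 3.58.1, other filters and scalings, and each library left out. Members and lists were chosen with earlier results of these data known. Genes named were those called, the 2 with most reads per complex, paralogue sets, ATP5IF1, and the 3 largest called transcript changes per direction with at least 60 reads; others named were chosen after their values were seen. COX6B2 is not analysed here. Of 47 symbols, 43 were found in RefSeq's yak table (Bosgru_T2T1.0), used for names and neighbours only. Tables and figures used Python 3.11.15, pandas 2.3.3 and matplotlib 3.10.9.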

Additional observations from a re-analysis of the deposited data

How the results depend on the processing

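No member was called higher under any alternative, and no called gene changed sign. The count of members called lower was 10 with no low count filter, where the median of all genes was 0.24, and 2 of 26 with reference transcripts only; leaving out 1 library gave 4 to 6, and the rest 4 or 5. Transcripts called lower numbered 11 with library size alone, and 11 to 19 without 1 library, 11 of them without yak 2 or cattle-yak 2. Transcripts called higher numbered 3 with edgeR's filterByExpr and 3 to 5 without 1 library. Members with changed usage numbered 0 with a minimum of 10% of the gene, 1 by the Simes method and 0 to 2 without 1 library. Over all genes tested, same-numbered libraries did not deviate together (correlations of -0.041, -0.012 and 0.012), and the sources used here give no pairing. UQCRFS1 was lowest in library 2 of each group, and a link by number in such genes was not tested. With the replicate block 5 members were lower, UQCRFS1 (-1.01, adjusted p = 0.00331) in place of SDHA (adjusted p = 0.053), and usage was called in 1. Leave-one-out fits keep at least 2 libraries per group.

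Of 1053 values of 57 named genes under alternatives, 942 kept direction and call, 48 lost the call, 9 gained it and 54 changed sign, the last all in genes not called. By size alone the signs turned for SDHB (0.10), CYC1 (0.15), UQCR10 (0.0555), UQCR11 (0.0157), CYCS (0.14), ATP5F1C (0.0195), ATP5F1E (0.1134), ATP5PB (0.0393), ATP5PD (0.18) and ATP5PO (0.0228). With no low count filter they turned for COX7A2 (-0.052), COX7C (-0.0681), COX8A (-0.0049) and ATP5MC1 (-0.0046). With a mean of at least 10 CPM they turned for CYC1 (0.0357), CYCS (0.0233) and ATP5PD (0.0646), with filterByExpr for ATP5PD (0.0278), and for COX7C with limma-voom (-0.0116) and the replicate block (-0.0015). Reference transcripts only turned SDHB (0.0727), UQCR10 (0.0994), COX5B (0.0186), CYC1 (0.45), SDHD (0.31), ATP5F1D (0.0047), ATP5MF (0.0339), ATP5PO (0.0617) and COX4I1 (0.007). Assembled transcripts only turned UQCRB (0.067), COX7A2 (-0.0086), COX7C (-0.2394) and ATP5IF1 (0.14), and rows of the own symbol turned UQCRB (0.0995), COX7A2 (-0.0373) and COX7C (-0.201). Over the fits without 1 library, COX5B ran from -0.3674 to 0.0047, COX7A2 from -0.0583 to 0.1898, COX7C from -0.1846 to 0.2034, COX8A from -0.1041 to 0.2045, CYC1 from -0.1392 to 0.0365, CYCS from -0.1893 to 0.0937, ATP5MC1 from -0.1189 to 0.1853, ATP5F1E from -0.1624 to 0.0109 and ATP5PD from -0.1127 to 0.1024. The causes were not tested.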
